A study of Homo sapiens with 15 samples.

Results

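The 10 genes described here belong to the amino acid and stress response driven by the transcription factor ATF4. They were read in MRC-5 cells, which are primary human fetal lung fibroblasts. The genes are ATF4 itself, its target genes DDIT3, TRIB3, CHAC1 and SESN2, the serine synthesis genes PHGDH, PSAT1 and PSPH, and the mitochondrial folate enzymes SHMT2 and MTHFD2. They were chosen by name, with earlier results of these data known. All 10 of 10 were found among the 57272 genes of the count table, by matching Ensembl identifiers to the symbols of GENCODE 44, and all 10 were among the 15799 genes with enough counts to be tested.

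RNA was sequenced from 15 libraries in 5 conditions with 3 replicates each, all grown at 5% O2. Young cells were collected at population doubling (PD) 30 after infection with a lentivirus that was empty (pWPIR-GFP) or expressed TRF2 (pWPIR-GFP-TRF2), a shelterin protein that protects telomeres. Another set of young cells carried the empty vector and an siRNA against LMNB1 (siLMNB1), the gene of the nuclear lamina protein Lamin B1, whereas every other condition received a control siRNA, and young cells with the empty vector stand below for those with the control siRNA. Senescent cells were passaged to a pre-senescent stage, infected with the empty or the TRF2 virus, and collected once their growth had reached a plateau. By the methods of the study, cells with TRF2 reached it after more doublings than the controls and carried the vector for many doublings, against days in young cells, so TRF2 and the number of doublings cannot be told apart in senescent cells. Senescent versus young cells were compared within each vector, siLMNB1 with young cells carrying the empty vector, and TRF2 with the empty vector in each state. All conditions come from a single cell line, and although the study calls its triplicates biological replicates, neither it nor the labels say whether they were separate cultures, so p-values measure only the spread between these samples, which may be technical.

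Levels are given in CPM, the share of a library's counts that fall on a gene, scaled up and adjusted with TMM, a normalization that evens out differences in composition between libraries. Library totals lay between 26725885 and 43116046 counts. A gene passed the test where edgeR's quasi-likelihood test gave a Benjamini-Hochberg adjusted p below 0.05 over all genes tested. DEGs by the threshold of the study must in addition move by 1 or more on the log2 scale at senescence, or by 0.58 or more with siLMNB1. The threshold was applied to the tests made here, which called more genes than the study reported. These DEGs and their shares therefore need not be those of the study.

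The targeted genes followed their labels. LMNB1 was at 59.7 ± 1.20 CPM (SD, n = 3) in young cells with the empty vector and at 2.67 ± 0.281 CPM with siLMNB1, and TERF2, the gene of TRF2, was at 23.8 ± 1.81 CPM with the empty vector and at 195 ± 97.7 CPM in young and 235 ± 43.6 CPM in senescent cells with the TRF2 virus. All 10 fibroblast markers were above 1 CPM in every library, while of 10 markers of epithelial, endothelial and leukocyte cells between 7 and 8 were below 1 CPM in all libraries of a condition, with a summed level of at most 14.2 CPM. Young replicate 1 with the empty vector stood apart for the epithelial markers KRT5 (209 counts) and CDH1 (9 counts), both at 0 in replicates 2 and 3, and without it the numbers of the 10 genes that rose and fell were the same in the comparisons with young controls, while the interaction described below was lost. The 10 genes of dividing cells summed to 794 to 847 CPM in young cells with the empty vector, 655 to 728 CPM in young cells with TRF2, 388 to 404 CPM with siLMNB1, 112 to 123 CPM in senescent cells with the empty vector and 62.0 to 72.2 CPM in senescent cells with TRF2. In bulk RNA, fewer cells that express a gene and less RNA per cell cannot be told apart.

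The 6 senescent libraries carry labels that mark them as reanalysed from a previous deposit and the 9 young libraries do not, so the deposit and the state cannot be told apart. The labels of 5 senescent libraries point to consecutive earlier records, whereas that of senescent replicate 3 with the empty vector points to a record numbered apart from them. Without this library, 1 of the 10 genes rose and 8 fell in senescent cells with the empty vector, against 1 and 6 with it. The share of all genes that passed without it was not counted, so the shift is not read as particular to this group. Counts rose with the GC content of a gene by 0.444 to 0.785 on the log2 scale per 10 percentage points of GC in the senescent libraries, against -0.0063 to 0.128 in the young ones, with the average young control library as the reference. The highest value, 0.785, belonged to senescent replicate 3 with the empty vector, whereas replicates 1 and 2 were at 0.444 and 0.489. There were also 37 genes at 10 CPM or more in every young library and below 1 CPM in every senescent one. Of these, 36 shared exonic bases with another gene, or 97.3%, against 51.7% of the 8958 genes with a mean of at least 10 CPM. None of the 10 genes described here was among the 37. Of these 10, 7 shared no exonic base with another gene, whereas DDIT3 shared 39.6%, MTHFD2 14.1% and SHMT2 8.4% of theirs. Values are therefore also given with offsets, which take a loess curve of the counts on GC content and on gene length out of each library. The part of the previous deposit and of shared exons in the differences below was not tested.

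ATF4 is made mainly at the level of translation: when kinases phosphorylate the initiation factor eIF2alpha during amino acid shortage, misfolding in the endoplasmic reticulum or mitochondrial stress, most translation falls while that of the ATF4 mRNA rises. ATF4 then switches on genes for amino acid synthesis and uptake and for tRNA charging, and under lasting stress genes that restrain growth or favour cell death. Serine made from a glycolytic intermediate by PHGDH, PSAT1 and PSPH in turn feeds the mitochondrial folate cycle through SHMT2 and MTHFD2, which supplies carbon units for nucleotide synthesis in dividing cells.

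ATF4 with a C/EBP partner binds a composite element whose core letters are TGATGNAA. The RefSeq promoters (GRCh38.p14) of 8 of the 10 genes were searched over the 250 bases before the start, on both strands, for this core, for the CCAAT box and for the cyclic AMP response element TGACGTCA. PSPH and SHMT2 had no entry. The core was found in 3.14% of 35116 promoters and in 1 of the 8 genes, CHAC1, where it lies on the opposite strand at -209 relative to the start. CCAAT was found in 32.0% of promoters and in 6 of the 8 genes, all but ATF4 and TRIB3, and TGACGTCA in 1.65% of promoters and in 0 of the 8 genes. The matches in these genes did not overlap. Shares count each promoter entry, whereas a gene counts if any of its entries matched. ATF4, DDIT3 and TRIB3 have 2, 2 and 3 entries, so the shares and the gene counts are not like for like. A match describes letters in this window and does not show a site in use. The CHAC1 core is shown because it was the only match of its kind, PSAT1 and MTHFD2 because they had the largest fold changes of the group in both senescence comparisons without the offsets, and SESN2 because it was the single gene of the group that passed the test in the upward direction there without the offsets. Capitals mark matches to TGATGNAA or CCAAT, the latter read as ATTGG where it lies on the opposite strand.
CHAC1, chr15:40953251-40953280, plus strand, from -220 to -191: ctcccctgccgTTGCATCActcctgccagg
PSAT1, chr9:78296875-78297124, plus strand, from -250 to -1: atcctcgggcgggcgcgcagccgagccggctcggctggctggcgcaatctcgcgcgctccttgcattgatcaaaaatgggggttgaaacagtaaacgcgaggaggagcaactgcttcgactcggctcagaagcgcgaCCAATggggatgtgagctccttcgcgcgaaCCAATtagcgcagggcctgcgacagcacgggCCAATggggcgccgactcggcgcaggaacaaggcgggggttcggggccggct
MTHFD2, chr2:74198365-74198604, plus strand, from -250 to -11: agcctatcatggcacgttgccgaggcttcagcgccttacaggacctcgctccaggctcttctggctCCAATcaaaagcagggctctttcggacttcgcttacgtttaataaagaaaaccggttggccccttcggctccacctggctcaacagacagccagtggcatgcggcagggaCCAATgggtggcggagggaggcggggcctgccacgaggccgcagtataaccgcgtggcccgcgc
SESN2, chr1:28259268-28259517, plus strand, from -250 to -1: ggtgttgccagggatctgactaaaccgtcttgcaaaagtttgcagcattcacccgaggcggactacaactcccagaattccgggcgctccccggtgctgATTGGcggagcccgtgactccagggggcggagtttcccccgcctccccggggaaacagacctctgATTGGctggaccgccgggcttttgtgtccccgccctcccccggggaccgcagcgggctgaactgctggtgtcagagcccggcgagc

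In young cells with the empty vector the 10 genes differed widely in level per length, given as CPM per kilobase of all annotated exons (RPKM). ATF4 was the most abundant at 87.9 ± 3.98 RPKM (SD, n = 3), followed by PSAT1 at 65.0 ± 3.77, CHAC1 at 52.4 ± 0.0392 and SHMT2 at 31.8 ± 1.61 RPKM. SESN2 at 16.6 ± 0.404 and TRIB3 at 15.8 ± 0.376 RPKM were neighbours whose means lay about as far apart as their SDs together. PHGDH at 11.1 ± 0.335, PSPH at 10.0 ± 0.988 and MTHFD2 at 8.78 ± 0.435 RPKM also lay close together, and DDIT3 was lowest at 3.79 ± 0.153 RPKM. The length used matters for genes with long annotated exons: per kilobase of the longest transcript, PHGDH was at 32.0 and MTHFD2 at 15.4 RPKM.

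In senescent versus young cells with the empty vector, 6 of the 10 genes fell and 1 rose. Over all genes tested, 31.9% fell and 32.7% rose. The median log2 fold change of the 10 genes was -0.57, against 0.02 over all genes. The genes that fell were the serine synthesis genes PSAT1, PHGDH and PSPH, the mitochondrial enzymes MTHFD2 and SHMT2, and the pseudokinase gene TRIB3. Of the stress genes, SESN2 rose, though it fell once offsets for GC content and gene length were applied, and ATF4, CHAC1 and DDIT3 did not pass. By the threshold of the study 3 genes were DEGs, namely PSAT1, PHGDH and MTHFD2, against 28.5% of all genes. In senescent versus young cells with TRF2, 8 of the 10 genes fell, against 30.1% of all genes, and 0 rose, against 28.2%, a count that was 0 in edgeR at an unadjusted p below 0.05 and in DESeq2 as well. The median was -1.12 against -0.02, and 5 genes were DEGs (PSAT1, MTHFD2, PHGDH, CHAC1 and TRIB3), against 24.0% of all genes.

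**Figure D1:**
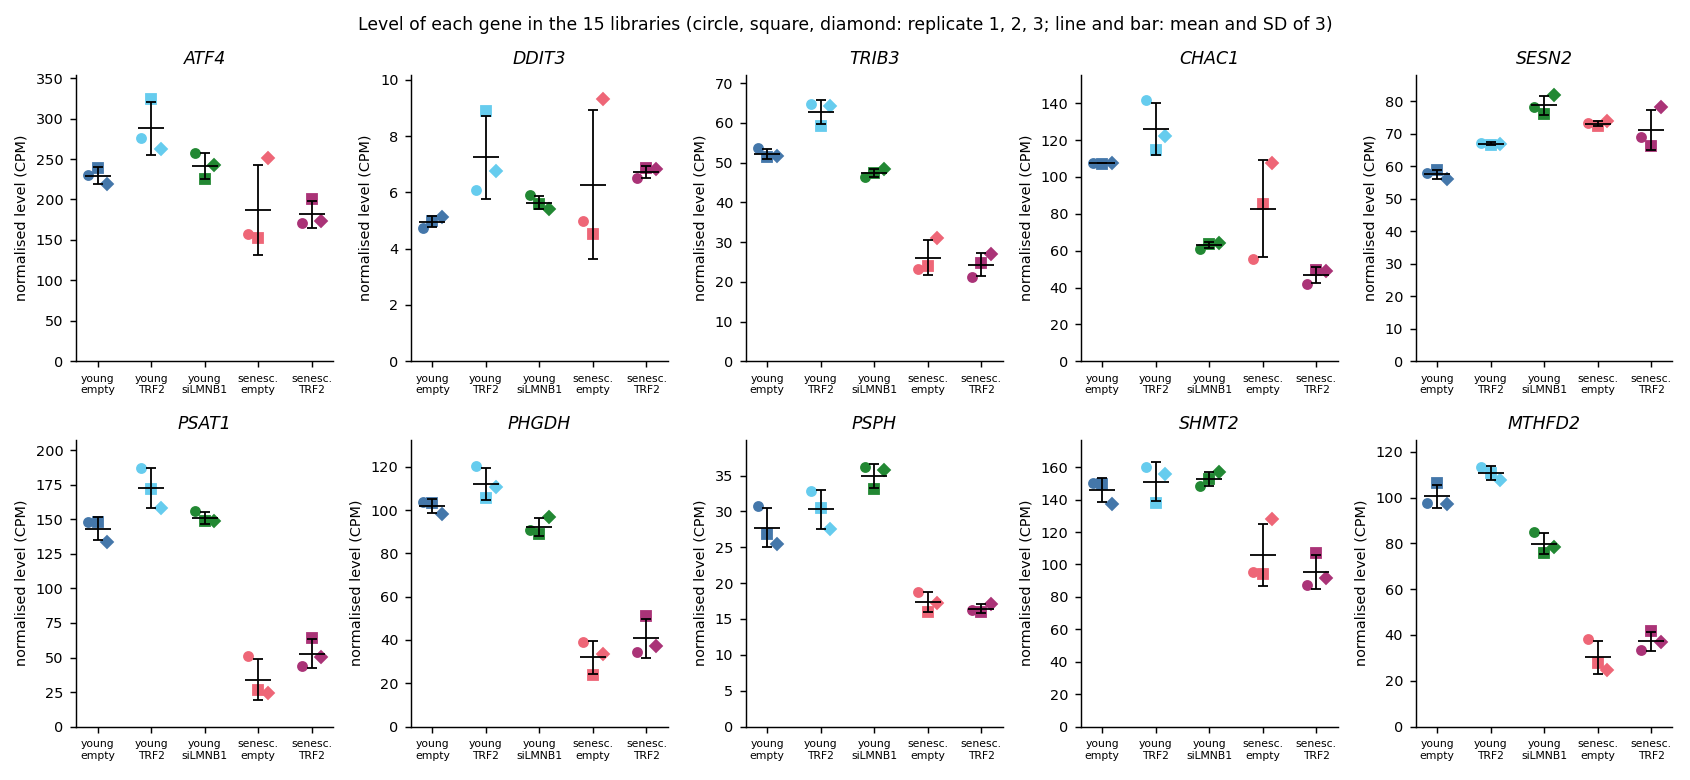
Level of each of the 10 genes in all 15 libraries, in CPM on a linear axis from 0, with 1 panel per gene and 1 column per condition; circles, squares and diamonds are replicates 1, 2 and 3, and lines with bars are the mean and SD of 3. PSAT1, PHGDH, PSPH, MTHFD2, SHMT2 and TRIB3 lie lower in all 6 senescent libraries than in all 9 young libraries, whereas SESN2 is lowest in young cells with the empty vector.

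PHGDH catalyses the committed step of serine synthesis. It was at 104, 103 and 98.3 CPM in the young libraries with the empty vector and at 38.9, 23.9 and 33.4 CPM in the senescent ones. The groups did not overlap, and PHGDH was 3.18-fold lower in senescent cells (log2 fold change -1.67 ± 0.16 SE, adjusted p = 1.41e-07). With TRF2 it was at 120, 106 and 111 CPM in young and at 34.3, 51.1 and 37.1 CPM in senescent cells, again without overlap (log2 fold change -1.46 ± 0.16 SE, adjusted p = 6.35e-07). Over the 5 conditions PHGDH was ordered from young with TRF2 (112 ± 7.32 CPM) over young with the empty vector (102 ± 3.08) and siLMNB1 (92.3 ± 4.06) to senescent with TRF2 (40.8 ± 9.02) and senescent with the empty vector (32.1 ± 7.61). Within that order, the step from siLMNB1 down to the senescent cells was larger than the spread, and the difference between the senescent conditions was not.

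PSAT1, the aminotransferase of the second step, had the largest change of the group before the offsets. Its level was 148, 148 and 134 CPM in young cells with the empty vector and 50.8, 26.6 and 24.5 CPM in senescent cells. All senescent libraries were below all young ones, replicate 1 was the highest of the senescent libraries, and the difference was 4.23-fold (log2 fold change -2.08 ± 0.21 SE, adjusted p = 3.15e-07). With TRF2 the young libraries were at 188, 172 and 159 CPM and the senescent libraries at 43.6, 64.1 and 50.6 CPM, a difference of 3.27-fold (log2 fold change -1.71 ± 0.21 SE, adjusted p = 2.61e-06). Levels were ordered as for PHGDH except that siLMNB1 (151 ± 4.15 CPM) lay between young cells with TRF2 (173 ± 14.5) and with the empty vector (143 ± 8.33), followed by senescent cells with TRF2 (52.7 ± 10.4) and with the empty vector (34.0 ± 14.7).

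PSPH, the phosphatase that releases serine, changed less than the other genes of serine synthesis. It was at 30.8, 26.9 and 25.5 CPM in young cells with the empty vector and at 18.8, 16.04 and 17.2 CPM in senescent cells, without overlap (log2 fold change -0.68 ± 0.10 SE, adjusted p = 2.06e-05). The corresponding levels with TRF2 were 32.9, 30.5 and 27.5 CPM in young and 16.2, 16.02 and 17.1 CPM in senescent cells (log2 fold change -0.88 ± 0.10 SE, adjusted p = 1.26e-06). In both comparisons PSPH passed the test without reaching the fold change threshold of the study. Its highest level of the 5 conditions was with siLMNB1 (35.0 ± 1.69 CPM), and the senescent conditions, at 17.3 ± 1.38 and 16.4 ± 0.597 CPM, differed by less than their SDs together.

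MTHFD2, a mitochondrial folate enzyme prominent in dividing and tumour cells, was at 97.8, 106 and 97.4 CPM in young cells with the empty vector. Senescent cells had 38.5, 27.6 and 24.8 CPM, all below the young libraries, a difference of 3.32-fold (log2 fold change -1.73 ± 0.13 SE, adjusted p = 1.26e-08). With TRF2, young libraries were at 114, 111 and 108 CPM and senescent libraries at 33.2, 41.6 and 36.8 CPM (log2 fold change -1.57 ± 0.13 SE, adjusted p = 3.53e-08). As in PSAT1, replicate 1 was the highest senescent library with the empty vector and replicate 2 the highest with TRF2. Over the 5 conditions MTHFD2 had the same order as PHGDH, from young cells with TRF2 (111 ± 3.02 CPM) and with the empty vector (101 ± 4.98) over siLMNB1 (79.8 ± 4.62) to senescent cells with TRF2 (37.2 ± 4.21) and with the empty vector (30.3 ± 7.21), and the senescent conditions differed by less than their SDs together.

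SHMT2, which splits serine into glycine and a folate-bound carbon unit in mitochondria, fell less. It was at 151, 149.7 and 137 CPM in young and at 95.6, 94.3 and 128 CPM in senescent cells with the empty vector. The libraries did not overlap, and senescent replicate 3 came closest to the young libraries (log2 fold change -0.46 ± 0.11 SE, adjusted p = 0.00208). With TRF2, SHMT2 was at 159.8, 138 and 156 CPM in young and at 87.5, 107 and 91.8 CPM in senescent cells (log2 fold change -0.66 ± 0.11 SE, adjusted p = 0.000107). The 3 young conditions, at 146 ± 7.38, 151 ± 11.9 and 153 ± 4.35 CPM, lay within their spread of each other, as did the senescent conditions at 106 ± 19.0 and 95.5 ± 10.4 CPM.

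SHMT1 and MTHFD1, the cytosolic counterparts, are not part of the group and were read for comparison. SHMT1 was at 9.75 ± 2.48 CPM in young and at 3.19 ± 0.411 CPM in senescent cells with the empty vector (log2 fold change -1.61 ± 0.17 SE, adjusted p = 5.96e-07), and MTHFD1 was at 75.4 ± 3.77 and 39.2 ± 3.77 CPM (log2 fold change -0.94 ± 0.10 SE, adjusted p = 3.62e-07). With TRF2 the log2 fold changes were -1.71 ± 0.17 and -1.08 ± 0.10 SE. Thus both the cytosolic and the mitochondrial enzymes fell in senescent cells. Whether the mitochondrial enzymes changed more than the cytosolic ones was not tested.

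ATF4 mRNA was at 231, 239 and 219 CPM in young cells with the empty vector and at 157, 153 and 251 CPM in senescent cells. Senescent replicate 3 lay above all 3 young libraries and the other replicates below them, so the groups overlapped and the difference did not pass (log2 fold change -0.30 ± 0.15 SE, adjusted p = 0.0948). Without senescent replicate 3 the log2 fold change was -0.59 (adjusted p = 1.15e-05), without replicate 2 it was -0.17 (adjusted p = 0.341), and under the GC and length offsets -0.67 (adjusted p = 1.6e-05). With TRF2, where no senescent library stood apart, ATF4 was at 277, 325 and 263 CPM in young and at 171, 201 and 173 CPM in senescent cells and fell 1.59-fold (log2 fold change -0.67 ± 0.15 SE, adjusted p = 0.00119). Young cells with TRF2 had the highest level (288 ± 32.7 CPM), young cells with siLMNB1 (242 ± 16.1) and with the empty vector (229.6 ± 10.4) differed by less than their SDs together, and the senescent conditions (187 ± 55.3 and 182 ± 16.7) could not be separated.

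CHAC1, which degrades glutathione and is among the genes most responsive to ATF4, was at 107 CPM in every young library with the empty vector and control siRNA. In the senescent libraries it spread over 55.3, 85.2 and 108 CPM, the widest spread of the group relative to that of the young libraries, and did not pass (log2 fold change -0.38 ± 0.16 SE, adjusted p = 0.0543). It was -0.63 without senescent replicate 3 (adjusted p = 0.000322) and -1.13 with the offsets (adjusted p = 9.22e-08), and both of these passed, but without senescent replicate 1 it was -0.16 (adjusted p = 0.217). With TRF2 the levels were 142, 114 and 122 CPM in young and 41.9, 49.7 and 49.0 CPM in senescent cells, a fall of 2.69-fold without overlap (log2 fold change -1.43 ± 0.17 SE, adjusted p = 1.86e-06). CHAC1 was at 63.0 ± 1.73 CPM with siLMNB1, between senescent cells with TRF2 (46.9 ± 4.29) and with the empty vector (82.7 ± 26.3).

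TRIB3, a pseudokinase that restrains ATF4 activity, lies near the end of the short arm of chromosome 20 (chr20:362835-397559). Its levels were 53.6, 51.3 and 51.5 CPM in young and 23.3, 23.9 and 31.1 CPM in senescent cells with the empty vector. The senescent libraries were all lower, and the fold change of 1.99 lay just under the threshold of the study (log2 fold change -0.997 ± 0.11 SE, adjusted p = 9.18e-07). With TRF2 the levels were 64.8, 59.3 and 64.3 CPM in young and 21.3, 24.6 and 27.0 CPM in senescent cells (log2 fold change -1.37 ± 0.11 SE, adjusted p = 2.54e-08). With the offsets the log2 fold changes were -1.76 and -1.85, and TRIB3 then had the largest change among the stress genes.

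SESN2, a stress-induced inhibitor of growth signalling that is also a p53 target, was at 57.9, 58.8 and 56.1 CPM in young and at 73.3, 72.3 and 73.8 CPM in senescent cells with the empty vector, higher in all senescent libraries (log2 fold change 0.34 ± 0.08 SE, adjusted p = 0.00097), but its direction turned with the offsets (log2 fold change -0.29, adjusted p = 0.0214). With TRF2 it was at 67.3, 66.6 and 67.0 CPM in young and at 69.1, 66.4 and 78.3 CPM in senescent cells, where the libraries overlapped and the difference did not pass (log2 fold change 0.09 ± 0.08 SE, adjusted p = 0.331), and the offsets again gave a negative value (-0.33, adjusted p = 0.0102). SESN2 has a GC content of 59.6%, near the top of the group, whose values ran from 42.2% (MTHFD2) to 61.5% (TRIB3). The sign of the SESN2 difference thus depended on whether the offsets were used.

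DDIT3, the gene of the death-promoting factor CHOP, was scarce. It was at 4.74, 4.99 and 5.14 CPM in young and at 4.98, 4.52 and 9.33 CPM in senescent cells with the empty vector, and at 6.09, 8.90 and 6.76 CPM in young and 6.5, 6.88 and 6.84 CPM in senescent cells with TRF2. Counts behind these values ran from 122 to 300 per library. Groups overlapped in both comparisons, and neither difference passed (log2 fold changes 0.35 ± 0.22 and -0.10 ± 0.21 SE, adjusted p = 0.173 and 0.69). The first value depended on single senescent libraries, at -0.08 without replicate 3 and at 0.53 without replicate 2, where it passed (adjusted p = 0.0411).

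**Figure D2:**
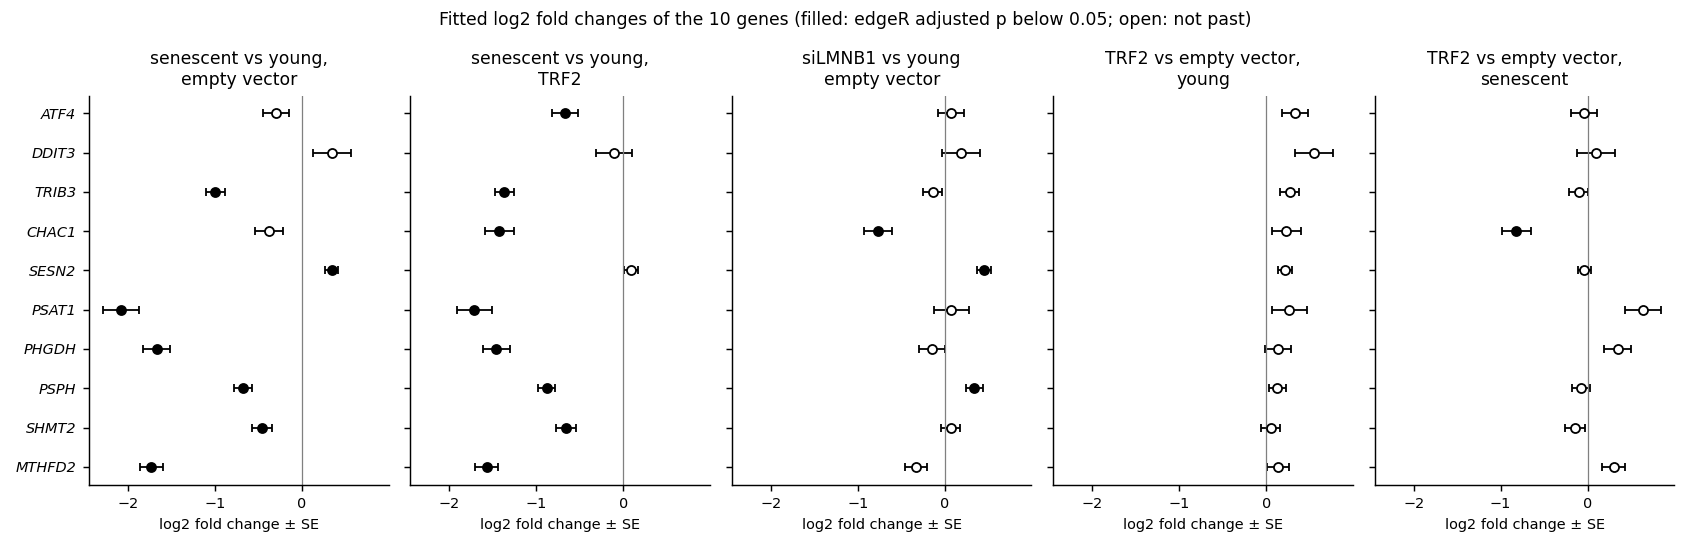
Fitted log2 fold changes with their SE for the 10 genes in the 5 comparisons, on a shared linear axis; filled points have an edgeR adjusted p below 0.05. Filled points lie to the left for 6 genes in senescent versus young cells with the empty vector and for 8 with TRF2, while SESN2 is filled to the right with the empty vector, a direction that turned under the offsets.

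Within the senescent triplicate with the empty vector, the 10 genes split by library. Replicate 1 was the highest of the 3 for PSAT1, PHGDH, PSPH and MTHFD2, whereas replicate 3 was the highest for ATF4, DDIT3, TRIB3, CHAC1 and SHMT2 and, by a margin of less than 1 CPM, for SESN2. For ATF4, replicate 3 exceeded the mean of young cells with the empty vector, and for DDIT3 it was the highest of all 15 libraries. Replicate 3 is also the library with the strongest GC trend given above. In the senescent triplicate with TRF2, replicate 2 was the highest for ATF4, PSAT1, PHGDH, SHMT2 and MTHFD2 and, by margins of less than 1 CPM, for DDIT3 and CHAC1.

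Offsets for GC content and gene length were used to see how far the GC trend of the senescent libraries touches these genes. With them, 9 of the 10 genes passed in the lower direction in each of the senescence comparisons, that is all but DDIT3, against 29.3% of all genes with the empty vector and 25.9% with TRF2. The falls of TRIB3, CHAC1, SHMT2 and ATF4, whose GC content lies between 56.7% and 61.5%, became larger, and those of PSAT1 and MTHFD2, at 42.5% and 42.2%, became smaller, for instance from -2.08 to -1.67 for PSAT1 and from -1.73 to -1.44 for MTHFD2 with the empty vector. PSAT1, PHGDH, PSPH, MTHFD2, SHMT2 and TRIB3 fell with and without the offsets in both senescence comparisons.

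**Figure D3:**
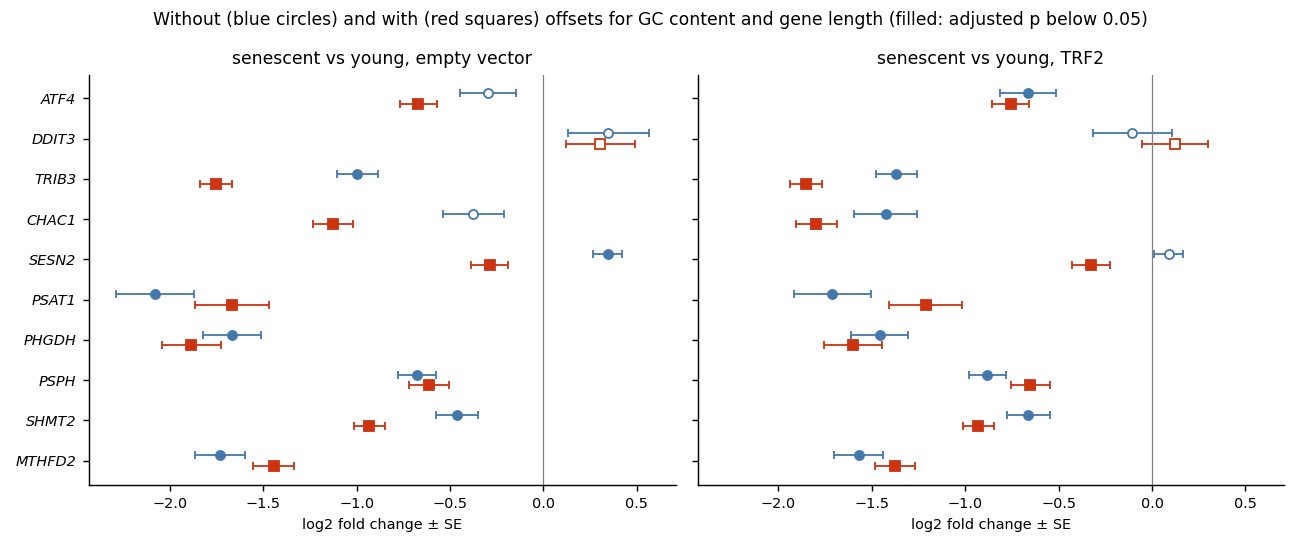
Log2 fold changes with their SE in both senescence comparisons without (blue circles) and with (red squares) offsets for GC content and gene length; filled symbols have an adjusted p below 0.05. SESN2 crosses 0 in both panels, DDIT3 crosses 0 with TRF2 without passing, and TRIB3, CHAC1 and SHMT2 move further to the left.

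With siLMNB1, which lowered LMNB1 22.3-fold, most of the 10 genes differed little from young cells with the empty vector. CHAC1 fell, and SESN2 and PSPH rose. These are 1 gene lower and 2 higher, against 16.1% and 16.4% of all genes, and CHAC1 alone was a DEG by the threshold of the study, against 18.3% of all genes. The median log2 fold change of the group was 0.07 and that of all genes 0.04. The control libraries are the same as in the senescence comparison with the empty vector, so the values of both comparisons are not independent.

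CHAC1 was at 61.0, 63.7 and 64.3 CPM with siLMNB1, against 107 CPM in each control library, a fall of 1.70-fold (log2 fold change -0.77 ± 0.16 SE, adjusted p = 0.00196). SESN2 was at 78.3, 76.1 and 82.0 CPM and thereby above all control libraries (log2 fold change 0.45 ± 0.08 SE, adjusted p = 0.000311), and it also passed with the offsets at 0.33 (adjusted p = 0.0156). PSPH was at 36.2, 33.1 and 35.7 CPM, above the controls (log2 fold change 0.34 ± 0.10 SE, adjusted p = 0.0144), but it no longer passed with the offsets (0.24, adjusted p = 0.0684) or in 4 of the 6 fits that left out 1 library. PSPH thus had values of opposite sign with siLMNB1 and in senescent cells.

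MTHFD2 was at 84.9, 75.9 and 78.6 CPM with siLMNB1, below all control libraries, and narrowly missed the threshold (log2 fold change -0.33 ± 0.13 SE, adjusted p = 0.0559). When the model held only the 6 libraries compared, MTHFD2 (adjusted p = 9.81e-06), PHGDH (0.0189) and TRIB3 (0.0407) also passed in the lower direction, with log2 fold changes of -0.33, -0.14 and -0.14, against 27.7% of all genes lower in that model. With the offsets MTHFD2 and TRIB3 passed beside CHAC1, against 24.2%. The full model shares its estimate of spread with the wider senescent triplicate. ATF4, SHMT2 and PSAT1 had log2 fold changes of 0.08, 0.07 and 0.08 with SEs of 0.15, 0.11 and 0.20, and DDIT3 had 0.19 ± 0.22 SE, none of which passed. PHGDH and PSAT1, which fell 3.18-fold and 4.23-fold in senescent cells with the empty vector, thus lay at -0.14 ± 0.15 and 0.08 ± 0.20 SE with siLMNB1. Of the cytosolic enzymes, MTHFD1 fell (log2 fold change -0.26 ± 0.09 SE, adjusted p = 0.0481), and SHMT1 did not pass (-0.42 ± 0.16 SE, adjusted p = 0.0563).

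With TRF2 in young cells, none of the 10 genes passed in either direction, against 0.152% of all genes higher and 0.0253% lower. Each of the 10 log2 fold changes was positive, from 0.05 for SHMT2 to 0.55 for DDIT3, with a median of 0.22 against 0.01 over all genes, and 4 of the positive values had an unadjusted p below 0.05 in edgeR, against 6.0% of all genes higher and 3.66% lower at that level, while DESeq2 called 0. ATF4 was at 277, 325 and 263 CPM with TRF2, above all control libraries (log2 fold change 0.33 ± 0.15 SE, adjusted p = 0.508). The ranges of TRF2 and control libraries did not touch for TRIB3, CHAC1, SESN2, PSAT1, PHGDH, DDIT3 and MTHFD2 either. The share of all genes without such overlap was not counted, so these gaps are not read as a result about the group. In a model of the 6 libraries compared alone, ATF4, TRIB3 and PSAT1 passed in the upward direction (adjusted p = 0.0301, 0.0309 and 0.0464), against 2.06% of all genes.

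With TRF2 in senescent cells, CHAC1 alone passed, in the lower direction, against 6.41% of all genes lower and 4.87% higher. It was at 41.9, 49.7 and 49.0 CPM with TRF2 and at 55.3, 85.2 and 108 CPM with the empty vector (log2 fold change -0.82 ± 0.17 SE, adjusted p = 0.0055), and replicate 1 of the empty vector lay nearest to the TRF2 libraries. In the model of the 6 senescent libraries alone it did not pass (-0.81, adjusted p = 0.146), and in that model only 2 of all genes passed in either direction. PSAT1 had the largest positive value, at 0.64 ± 0.20 SE, and did not pass (adjusted p = 0.0564). Without replicate 1 of the empty vector, PSAT1 (1.05, adjusted p = 3.22e-05), PHGDH (0.51, adjusted p = 0.0215) and MTHFD2 (0.51, adjusted p = 0.00174) passed in the upward direction. That replicate was the highest of its triplicate for each of these genes. The share of all genes that passed without it was not counted. The median of the group was -0.04 and that of all genes -0.02.

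The difference between the senescence effects with TRF2 and with the empty vector was tested as an interaction. It passed for 1 of the 10 genes, CHAC1, against 1.13% of all genes. CHAC1 changed by -1.43 on the log2 scale at senescence with TRF2 and by -0.38 with the empty vector, a difference of -1.05 ± 0.23 SE (adjusted p = 0.0389). It stayed on this side of the threshold with the offsets (-0.67, adjusted p = 0.028), but did not pass in 10 of 12 fits with 1 library removed and in the model without the siLMNB1 libraries (adjusted p = 0.0905). ATF4 at -0.37 ± 0.21, DDIT3 at -0.45 ± 0.30 and PSAT1 at 0.37 ± 0.29 SE did not pass, so their senescence effects with and without TRF2 were not shown to differ.

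Other genes of the pathway were read from lists chosen with these data known, and their counts are set beside the shares of all genes given above. Of 24 tested other targets and partners of ATF4, 11 fell and 3 rose in senescent cells with the empty vector, and 16 fell and 2 rose with TRF2. CEBPG, a dimer partner of ATF4, fell from 34.8 ± 0.259 to 13.9 ± 0.634 CPM (log2 fold change -1.33 ± 0.08 SE, adjusted p = 6.75e-10), and was at -0.81 with the offsets. DDIT4, an inhibitor of growth signalling, rose from 7.48 ± 0.571 to 15.6 ± 3.46 CPM (log2 fold change 1.07 ± 0.15 SE, adjusted p = 1.43e-05), and by 0.43 with the offsets. CEBPB, another C/EBP partner, had 79.2 ± 1.66 CPM in young and 159 ± 34.5 CPM in senescent cells (log2 fold change 1.01, adjusted p = 3.33e-06), but -0.06 with the offsets (adjusted p = 0.578).

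ASNS, asparagine synthetase and a standard target of ATF4, was listed at 88.0 ± 3.31 CPM in young and 0.278 ± 0.0959 CPM in senescent cells with the empty vector, and at 105 ± 7.60 and 0.379 ± 0.116 CPM with TRF2. It shares 49.3% of its exonic bases with another gene. SLC25A32, the mitochondrial folate carrier, was likewise at 65.9 ± 2.05 and 0.0711 ± 0.0377 CPM and shares 80.8%. Both are among the 37 genes described above, so the size of these differences is not read as a level of expression. Among the 12 other ATF4 targets and partners that share no exonic base, 5 fell and 2 rose with the empty vector, and 9 fell with TRF2.

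Of 21 other folate and glycine cycle genes, 14 fell and 2 rose in senescent cells with the empty vector. TYMS, thymidylate synthase, fell from 29.0 ± 1.22 to 3.24 ± 0.592 CPM (log2 fold change -3.16 ± 0.14 SE, adjusted p = 1.58e-11), with 47.9% of its exonic bases shared with another gene. FPGS, which adds glutamates to folate, had a log2 fold change of 0.52 (adjusted p = 0.000706) that turned to -0.39 with the offsets (adjusted p = 0.00021). Of the 10 genes of this list without shared exonic bases, 6 fell and 1 rose. These lists hold genes of dividing cells, and the summed level of the 10 dividing-cell genes moved the same way, all 10 of which fell with a median log2 fold change of -2.80. The part of proliferation in these differences was not tested.

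Of 20 cytosolic aminoacyl-tRNA synthetases, which charge tRNAs with amino acids, 14 fell and 1 rose in senescent cells with the empty vector, with a median log2 fold change of -0.58, and 15 fell with TRF2. GARS1 fell from 380.0 ± 15.95 to 156 ± 5.76 CPM (log2 fold change -1.29 ± 0.07 SE, adjusted p = 3.67e-10) and RARS1 from 175 ± 2.26 to 90.5 ± 6.27 CPM (log2 fold change -0.95 ± 0.08 SE, adjusted p = 1.96e-08). Under the offsets these falls were smaller, at -0.74 and -0.49. FARSA, the single gene of the list with a positive value that passed (0.40, adjusted p = 0.00657), turned to -0.22 with the offsets. Of 11 amino acid transporters, 7 fell and 2 rose. SLC7A5, the leucine carrier, fell from 161 ± 2.26 to 61.7 ± 5.54 CPM and SLC7A1, a cationic amino acid carrier, from 152 ± 6.54 to 54.1 ± 18.1 CPM, with log2 fold changes of -1.38 ± 0.09 (-2.11 with the offsets) and -1.50 ± 0.17 SE. SLC3A2, the partner chain of SLC7A5, rose by 0.41 ± 0.11 SE on the log2 scale (adjusted p = 0.00304), but did not pass with the offsets (0.11, adjusted p = 0.334). SLC38A3 had a log2 fold change of 3.46 ± 0.88 SE at only 0.289 CPM in senescent cells.

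The factors upstream of ATF4 moved modestly. Of 15 genes of the eIF2alpha kinases, the phosphatase and the eIF2B subunits, 10 fell and 1 rose in senescent cells with the empty vector, at a median of -0.38. With the offsets 4 fell and 2 rose, against 29.3% and 28.1% of all genes. EIF2S1, the gene of eIF2alpha, fell from 149 ± 2.40 to 86.3 ± 6.45 CPM (log2 fold change -0.79 ± 0.08 SE, adjusted p = 2.12e-07). DELE1, which relays mitochondrial stress, rose from 31.2 ± 0.917 to 39.5 ± 2.73 CPM (log2 fold change 0.34 ± 0.09 SE, adjusted p = 0.00228). Under the offsets EIF2S1 was at -0.21 (adjusted p = 0.0234) and DELE1 at 0.22 (adjusted p = 0.0248). EIF2B2, a subunit of the exchange factor, fell by 0.64 on the log2 scale (adjusted p = 2.8e-05), and was at -0.49 under the offsets. It shares 23.6% of its exonic bases with another gene. ATF4 protein and the phosphorylation of eIF2alpha were not measured in these libraries.

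Of 22 chaperones and sensors of the endoplasmic reticulum, 13 fell and 4 rose. HSPA5, the chaperone BiP, fell from 1660.0 ± 25.8 to 818 ± 40.0 CPM (log2 fold change -1.02 ± 0.07 SE, adjusted p = 4.02e-09) and HSP90B1 from 1406 ± 42.5 to 546 ± 51.1 CPM (log2 fold change -1.37 ± 0.11 SE, adjusted p = 1.71e-08). Under the offsets HSPA5 was at -0.85 and HSP90B1 at -0.84. SYVN1, a ubiquitin ligase that clears misfolded proteins, rose by 0.73 ± 0.09 SE (adjusted p = 2.05e-06), and by 0.29 with the offsets. CREB3L1, a membrane-bound transcription factor, had 0.29 ± 0.09 SE (adjusted p = 0.00819), which turned to -0.45 with the offsets. Of 9 mitochondrial chaperones and proteases, 4 fell and 2 rose, at a median of 0.02. Among those that fell were HSPD1 (log2 fold change -1.07 ± 0.07 SE, -0.55 with the offsets) and HSPA9 (-0.86 ± 0.07 SE, -0.57 with the offsets). The protease genes HTRA2 (0.79 ± 0.15 SE) and CLPP (0.49 ± 0.15 SE, which did not pass with the offsets) rose. HTRA2 shares 32.3% of its exonic bases with another gene, and only 1 of the 9 genes shares none.

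**Figure D4:**
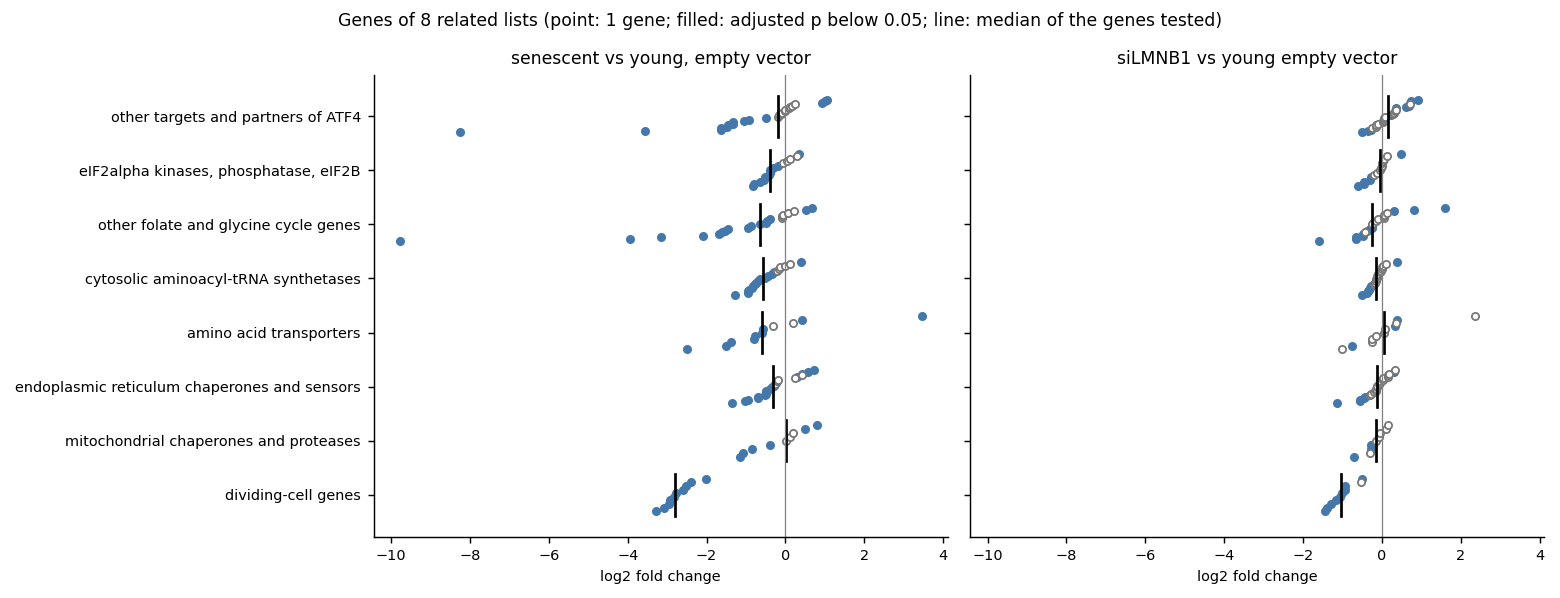
Log2 fold changes of the genes tested in 8 related lists, in senescent versus young cells with the empty vector (left) and with siLMNB1 (right), on a shared linear axis; each point is 1 gene, filled where the adjusted p is below 0.05, and vertical lines are medians. The points furthest to the left are ASNS at -8.26 and SLC25A32 at -9.79 in senescent cells, both of which share exonic bases with other genes, and the dividing-cell genes are lower as a whole in both panels, with medians of -2.80 and -1.03.

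With siLMNB1 the same lists gave fewer calls, as did all genes, of which 16.4% rose and 16.1% fell. Of the 24 other targets and partners of ATF4, 7 rose and 3 fell, with ATF3, a stress-induced factor, up from 13.5 ± 1.04 to 22.3 ± 1.49 CPM (log2 fold change 0.72 ± 0.11 SE, adjusted p = 0.000119) and VEGFA down from 52.6 ± 1.49 to 37.1 ± 2.72 CPM (log2 fold change -0.50 ± 0.08 SE, adjusted p = 0.000197). Of the 21 folate and glycine cycle genes, 10 fell and 3 rose, with SDSL, a serine dehydratase relative, at 1.60 ± 0.17 SE (adjusted p = 2.95e-06). Among the tRNA synthetases 6 fell and 1 rose. Amino acid transporters gave 2 higher and 1 lower, SLC7A1 at -0.76 ± 0.16 SE (adjusted p = 0.00219). XBP1, a transcription factor of the unfolded protein response, fell from 141 ± 9.79 to 64.0 ± 1.67 CPM (log2 fold change -1.14 ± 0.09 SE, adjusted p = 1.16e-07) among 5 that fell and 1 that rose of the 22 endoplasmic reticulum genes. Of the 9 mitochondrial chaperones and proteases 3 fell, led by HSPD1 (-0.71 ± 0.07 SE, adjusted p = 1.86e-06), and of the 10 dividing-cell genes 9 fell. EIF2B3 (-0.60 ± 0.10 SE) and OMA1 (0.48 ± 0.17 SE) led the 5 that fell and the 1 that rose of the 15 upstream genes.

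In senescent versus young cells with TRF2, the controls are other libraries. The median log2 fold change of the other targets and partners of ATF4 was -0.73, against -0.18 with the empty vector, and the interaction passed in the lower direction for 4 of the 24, against 0.956% of all genes. In the model without the siLMNB1 libraries only 7 of all genes passed there in that direction. Besides the 16 that fell with TRF2, JDP2, a repressor of the AP-1 family, led the 2 that rose, from 33.5 ± 1.58 to 50.5 ± 3.81 CPM (log2 fold change 0.59 ± 0.14 SE, adjusted p = 0.00165). Folate and glycine cycle genes gave 15 lower and 3 higher. Transporters gave 6 lower, SLC7A5 at -1.54 ± 0.09 SE, and 1 higher, SLC3A2 at 0.31 ± 0.11 SE, which did not pass with the offsets (adjusted p = 0.164). EIF2S1 led 9 upstream genes that fell, at -0.64 ± 0.08 SE, and did not pass with the offsets (adjusted p = 0.0693). GARS1 was at -1.27 ± 0.07 SE, or -0.98 with the offsets. Of the endoplasmic reticulum genes 14 fell, HSPA5 at -1.21 ± 0.07 SE, and 2 rose, SYVN1 at 0.50 ± 0.09 SE. HSPA9 (-1.03 ± 0.07 SE) led the 4 mitochondrial genes that fell and HTRA2 (0.45 ± 0.14 SE) was the 1 that rose, and all 10 dividing-cell genes fell, CCNA2 by 3.46 on the log2 scale.

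With TRF2 in young cells, 0 of the 132 genes of these 8 lists passed in edgeR, 30 had an unadjusted p below 0.05 and DESeq2 called 4. Of those 30, 13 were among the 24 other targets and partners of ATF4, and all 13 were higher with TRF2. The log2 fold change was positive for 22 of the 24, with a median of 0.24. In the model of the 6 libraries compared alone, 9 of the 24 passed in the upward direction, against 2.06% of all genes, and with the offsets in the full model 1 did, against 0.184%. The 3 with the smallest p in that model, chosen after their values were seen, were NUPR1, ATF3 and GDF15. NUPR1, a small stress-induced chromatin protein, was at 58.1, 57.0 and 52.7 CPM with the empty vector and at 83.1, 94.4 and 78.6 CPM with TRF2, without overlap. Its log2 fold change was 0.61 ± 0.07 SE in the model of these libraries (adjusted p = 0.00114) and 0.61 in the full model (adjusted p = 0.204). ATF3 was at 12.3, 13.9 and 14.3 CPM with the empty vector and at 20.02, 20.8 and 18.2 CPM with TRF2 (log2 fold change 0.54 ± 0.09 SE, adjusted p = 0.00911, or 0.0716 in the full model). GDF15, a secreted stress hormone, was at 101, 104 and 121 CPM and at 143, 139.9 and 144 CPM (log2 fold change 0.39 ± 0.07 SE, adjusted p = 0.00933, or 0.5 in the full model). These values come from the same libraries as those of the 10 genes in young cells with TRF2.

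In senescent cells with TRF2, STC2, a secreted glycoprotein induced by ATF4, fell from 656 ± 15.6 to 411 ± 31.6 CPM (log2 fold change -0.68 ± 0.08 SE, adjusted p = 0.000224), and its interaction with senescence passed at -0.86 ± 0.12 SE (adjusted p = 0.00741). CEBPG rose by 0.31 ± 0.08 SE on the log2 scale (adjusted p = 0.0206). Of the 24 other ATF4 targets and partners, 3 rose and 3 fell there, and all 10 dividing-cell genes fell, 9 of them also with the offsets. WARS1 (0.61 ± 0.12 SE) and SLC1A4 (0.68 ± 0.13 SE) rose, whereas FARSB (-0.36 ± 0.09 SE), GGH (-0.55 ± 0.09 SE), SDF2L1 (-0.70 ± 0.18 SE) and TRAP1 (-0.38 ± 0.09 SE) fell. MTHFD1, the cytosolic counterpart of MTHFD2, also fell (log2 fold change -0.37 ± 0.10 SE, adjusted p = 0.0219), and SHMT1 did not pass (-0.22 ± 0.18 SE). CDK1 led the dividing-cell genes, at -1.31 ± 0.12 SE, and its interaction with senescence was -1.002 ± 0.16 SE (adjusted p = 0.0166). In the model of the 6 senescent libraries alone only 2 of all genes passed, both higher with TRF2, so that none of the falls given here passed in it.

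The marker lists were read for the makeup of the samples. Of 10 fibroblast markers, 4 fell and 2 rose in senescent cells with the empty vector, with COL3A1 at -2.04 ± 0.18, LUM at -1.34 ± 0.15 (-0.50 with the offsets) and THY1 at 1.23 ± 0.10 SE, and PDGFRB at 0.24 ± 0.09 SE, which turned to -0.32 with the offsets. With TRF2, COL3A1 was at -1.89 ± 0.18 and THY1 at 1.60 ± 0.10 SE. With siLMNB1 5 rose and 2 fell, with LUM at 1.68 ± 0.15 and VIM at -0.62 ± 0.09 SE. With TRF2 2 rose in young and 8 in senescent cells, the latter against 4.87% of all genes, with DCN at 0.77 ± 0.14 and 0.97 ± 0.14 SE. Of the markers of other cell types only 4 had enough counts to be tested, with low levels: CD14 was at 0.155 ± 0.142 CPM in young and 1.89 ± 0.415 CPM in senescent cells with the empty vector, and VWF at 0.792 ± 0.164 and 2.83 ± 0.399 CPM. CD14 was at 2.74 ± 0.716 CPM in senescent cells with TRF2, EPCAM at 0.846 ± 0.0875 CPM with siLMNB1, and KRT19 at 6.79 ± 2.07 CPM in senescent cells with the empty vector.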

How the data were processed

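RNA-seq was performed on total RNA of MRC-5 cells in 15 libraries. According to the submitters' processing notes and the methods of the study, reads were trimmed (Trimmomatic) and aligned and counted on GRCh38 (STAR, GeneCounts mode), and the authors deposited raw read counts per gene, not normalized. Annotation release and strand setting are not given in the sources used here. All 15 columns of the table were matched to a sample by their labels. The precision of each value is limited by 3 replicates per condition and, at totals of 26725885 to 43116046 counts, less by counting error, except for DDIT3 with 122 to 300 counts per library.

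The gene group and the 10 lists beside it were chosen with earlier results of these data known. All 10 genes are named, the targeted genes LMNB1 and TERF2, SHMT1 and MTHFD1, and of each list the genes that passed with the smallest adjusted p in each direction, 2 in senescent versus young cells with the empty vector and 1 in the other comparisons. Some genes that this rule names are not reported here. Counts were scaled with TMM and filtered with filterByExpr, and all 15 libraries were fitted in 1 model with 5 condition means in edgeR 4.0.16 (R 4.3.3, limma 3.58.1). Contrasts and the interaction were tested with the quasi-likelihood test and adjusted by Benjamini-Hochberg over 15799 genes. SDs are over 3 replicates and SEs come from the model.

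Alternatives were DESeq2's size factors, the Wald test of DESeq2 1.42.0, no filter on low counts, a model of only the libraries compared, a replicate block, offsets from loess curves (span 0.3) on GC content and gene length, each library left out in turn and, for levels per length, the longest transcript. Counts over only those genes of the group that share no exonic base were added after seeing the data. Gene positions, exon lengths and overlaps came from GENCODE 44 and promoters from RefSeq (GRCh38.p14). Pseudogenes of ATF4, PSAT1, PSPH and MTHFD2 held at most 0.264% of the counts of gene and pseudogenes together. The steps were tested on simulated data, and the summaries and figures were made in Python (3.11.15) using pandas (2.3.3), numpy (2.4.6) and matplotlib (3.10.9).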

Additional observations from a re-analysis of the deposited data

Results flagged for a closer look

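The senescence effect on CHAC1 differed between cells with TRF2 and cells with the empty vector in the interaction test, by -1.05 in log2 units (SE 0.23, adjusted p = 0.0389 in edgeR), and it was the single gene of the group singled out in this way. CHAC1 was lower in 3 of 3 senescent libraries with TRF2 than in every young library with TRF2, whereas with the empty vector senescent replicate 3 (108 CPM) was level with the young libraries (107 CPM each). Without that replicate the difference was -0.80. Adjusted p ranged from 6.04e-05 to 0.115 over the 12 fits that left out 1 library. The part of the GC trend, which is strongest in that replicate, was not tested beyond the offsets, with which the difference was -0.67 (adjusted p = 0.028).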

How the results depend on the processing

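The falls of PSAT1, PHGDH, PSPH, MTHFD2, SHMT2 and TRIB3 kept their direction and passed in both senescence comparisons under every alternative tried and with each library left out. Under the offsets for GC content and gene length, 12 of the 60 log2 fold changes of the 10 genes turned. In senescent versus young cells these were SESN2 with the empty vector (-0.29) and with TRF2 (-0.33) and DDIT3 with TRF2 (0.12). With siLMNB1 they were ATF4 (-0.0187), PSAT1 (-0.015) and SHMT2 (-0.0187). In TRF2 versus empty vector, senescent, they were ATF4 (0.19), TRIB3 (0.10), SESN2 (0.12), PSPH (0.058) and SHMT2 (0.00597), and in the interaction SHMT2 (0.00363). Of these, SESN2 alone passed the test, in both senescence comparisons.

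Counts of the 10 genes that passed moved as follows. With the offsets, 0 rose in senescent cells with the empty vector (edgeR, with 1 before the offsets at an unadjusted p below 0.05 and 1 in DESeq2), 1 rose and 3 fell with siLMNB1 (24.2% of all genes fell), and 1 rose with TRF2 in senescent cells. With only the libraries compared, 4 fell with siLMNB1 (27.7% of all genes fell) and 3 rose with TRF2 in young cells (2.06% rose). In such models 0 fell with TRF2 in senescent cells, where 0 of all genes fell, and 0 passed in the interaction. DESeq2's size factors, no filter and DESeq2's Wald test each gave 2 lower with siLMNB1, against 17.1%, 7.74% and 4.98% of all genes. No filter gave 2 and the Wald test 1 higher with TRF2 in senescent cells, against 4.12% and 1.82%. Shares are over 31776 genes without the filter and over 57272 for the Wald test, which take in genes with few counts. Among genes that share no exonic base, no count moved by more than 1.5 times.

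Leaving out each library in turn gave 1 to 2 higher and 6 to 8 lower in senescent cells with the empty vector, 8 lower with TRF2, 1 to 2 higher with siLMNB1, 0 to 3 higher with TRF2 in senescent cells and 0 to 2 in the interaction. Shares of all genes that passed were not counted for these fits. The rise to 2 came without senescent replicate 2 with the empty vector, and the fall to 1 with siLMNB1 without young replicate 2 or 3 or siLMNB1 replicate 1 or 3. With TRF2 in senescent cells, 3 rose without replicate 1 and 1 without replicate 3 of the empty vector. The interaction gave 2 without senescent replicate 1 with the empty vector and 0 without any 1 of the 10 libraries other than this and replicate 3. Signs turned for DDIT3 in senescent versus young cells with the empty vector (-0.0808 to 0.533) and TRF2 (-0.227 to 0.0644), for SHMT2 with TRF2 in young cells (-0.00962 to 0.115), and in TRF2 versus empty vector, senescent, for ATF4 (-0.168 to 0.229), DDIT3 (-0.091 to 0.507), TRIB3 (-0.185 to 0.0457), SESN2 (-0.109 to 0.0128) and SHMT2 (-0.24 to 0.0112).

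Same-numbered libraries did not deviate together (correlations of -0.0945 to 0.0615), which does not show whether they were handled together. A replicate block moved CHAC1 in senescent cells with the empty vector to -0.40 (adjusted p = 0.0421). It moved PSAT1 with TRF2 in senescent cells to 0.67 (adjusted p = 0.0402), which gave 1 gene higher there, against 5.24% of all genes. The block changed no other call.

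The number of replicates, the single cell line and the shared control libraries limit all comparisons, and the cause of these shifts was not tested.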
